A study of Apis mellifera with 12 samples.

Results

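In the brains of 12 honey bee queens, 110 genes were set apart in CO2-treated queens, 51 of them higher and 59 lower there than in every virgin and every mated queen. Genes were taken from a table of 15314 by 3 conditions. A gene needed at least 10 counts summed over the queens and a mean of at least 1 CPM (the counts of a gene scaled to a common library size, after TMM normalization, which scales libraries on the genes that change least), and 10893 genes passed. The lowest of the 4 CO2 values had to exceed the highest of the 8 other values, or the highest CO2 value had to lie under the lowest of them. Finally, the virgin and mated ranges had to overlap. The 110 genes were 1.01% of those that passed, with 0.468% raised and 0.542% lowered. All 12 values of each gene were used in this choice, so the differences between CO2-treated, virgin and mated queens are described below and carry no test.

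The queens were 8-day-old sisters from the same source colony of Australian commercial stock, mostly of Italian (Apis mellifera ligustica) descent and labelled ligustica, each kept in a nucleus colony of its own, and each brain gave 1 library. The 4 mated queens were released to fly on day 6 and had mated, and they alone had developing eggs and semen. CO2-treated queens (n = 4) were caged and made immobile with CO2 for 10 min on day 6 and again on day 7, all of the group in the same bag, and had neither eggs nor semen. Virgin queens (n = 4) were caged with them and returned to their colonies without narcosis, and had no eggs or semen either. No caging is described for mated queens, and the bag cannot be told apart from the treatment. Queens carry the numbers of their labels, which name different animals in each group. The labels of virgin queen 1, mated queen 1 and CO2-treated queens 1 and 2 also end in br. This suffix is not explained and was not used in the choice. Between 12434733 and 20677514 counts were available per queen, and 3 counts corresponded to 0.135 to 0.271 TMM CPM, a floor for counting error only. One gene, GB49544, took 13.7% to 42.7% of the counts of mated queens and 0.153% to 5.02% of those of the others. In whole brains, more RNA per cell and more cells of a type cannot be told apart.

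Carbon dioxide immobilises insects at high concentration, and in honey bee queens repeated narcosis is used by beekeepers to bring on egg laying without mating. Insects detect the gas with dedicated sensory neurons, and narcosis also displaces oxygen and acidifies the haemolymph. After mating, honey bee queens cease to fly and remain in the hive to lay eggs. Names below are those of Drosophila orthologs in the supplementary gene lists, and the roles given are background from Drosophila or human work. Of the raised genes, 10 of 51 had such a name, and of the lowered genes 2 of 59. The other 98 are given by identifier, without a role.

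The widest gaps belonged to 3 raised genes. GB44248 has the ortholog PQBP-1, a polyglutamine-binding protein that works with the spliceosome and whose human counterpart is required for normal cognitive development. Its level in CO2-treated queens 5, 2, 1 and 7 was 10.0, 13.3, 22.1 and 16.9 CPM, and the lowest, median and highest of the 8 other queens were 0.632, 1.34 and 3.02 CPM. The lowest CO2-treated queen thus lay 3.32-fold above the highest other queen, the widest gap of all 110 genes. Means were 15.6 ± 5.15 CPM (SD, n = 4) in CO2-treated and 2.37 ± 0.799 CPM (SD, n = 4) in virgin queens, and mated queens ranged from 0.632 to 1.44 CPM, with log2 fold changes of 2.70 (SE 0.37) against virgin and 3.93 (SE 0.40) against mated queens. Virgin queen 6, at 1.22 CPM, was the only virgin queen within the mated range, so the overlap that the choice required rested on it. Counts behind these values were 174 to 376 in CO2-treated queens and 7 to 59 in the others.

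GB48936 (ortholog CG10960, which the study annotated as a sugar transporter of the membrane) was near the bottom of the measured range outside the treated group. CO2-treated queens 5, 2, 1 and 7 had 4.62, 3.95, 11.6 and 4.17 CPM, and the lowest, median and highest of the 8 others were 0.287, 0.872 and 1.22 CPM. Queen 1 of the CO2 group stood well above its 3 group mates, and the gap to the nearest other queen was 3.24-fold. The difference amounted to log2 fold changes of 3.13 (SE 0.47) against virgin and 2.61 (SE 0.46) against mated queens, on 76 to 185 counts in CO2-treated queens and 4 to 22 counts elsewhere. Next to it by identifier, GB48935 has the ortholog S (Star), which in Drosophila brings the ligand of the epidermal growth factor receptor through the secretory pathway. Its CO2 values were 8.03, 7.85, 15.0 and 8.92 CPM, again highest in queen 1, and the others ranged from 1.58 to 7.33 CPM. With consecutive identifiers and no strand stated for the counting, reads from any overlap of the pair cannot be told apart.

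GB49390, ortholog of the receptor-type tyrosine phosphatase Lar, which guides axons and shapes synapses in Drosophila, was the most abundant of the genes with a wide gap. Values in CO2-treated queens 5, 2, 1 and 7 were 227, 181, 298 and 230.4 CPM, against 48.2, 66.7 and 85.2 CPM as the lowest, median and highest of the other 8. Every CO2-treated queen had at least 2.12-fold the level of any other queen. Virgin and mated queens overlapped, at 58.8 ± 13.4 CPM (SD, n = 4) and 75.4 ± 10.4 CPM (SD, n = 4), and CO2-treated queens averaged 234 ± 48.4 CPM (SD, n = 4). Counts of 3480 to 5142 supported the CO2 values.

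A gene for a transcription factor of the doublesex family followed. GB43847 (dmrt93B, with the DM domain found in sex-determination genes of many animals) had 4.68, 5.41, 5.50 and 8.38 CPM in CO2-treated queens 5, 2, 1 and 7 and from 1.08 to 2.66 CPM in the others, a gap of 1.76-fold. Here queen 7 was the highest of the treated group. Its log2 fold changes were 1.81 (SE 0.37) against virgin and 1.97 (SE 0.38) against mated queens, on 12 to 187 counts.

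The other named raised genes had gaps of under 1.3-fold. GB47505, a histone H2B gene and so part of the protein core around which DNA is wound, was at 20.3, 14.7, 13.2 and 14.2 CPM in CO2-treated queens 5, 2, 1 and 7 and from 3.95 to 10.6 CPM in the others. Histone genes have near-identical copies, and short reads may have been divided among them, so this value is uncertain. GB44263 (CG7097, the happyhour kinase, which alters sensitivity to ethanol in Drosophila) had 46.5, 62.8, 73.4 and 60.4 CPM against a range from 19.7 to 38.1 CPM. The treated means of these genes were 2.35 and 2.18 times the mean of the others. GB54572, ortholog of Rpp30, a protein subunit of the RNase P that trims transfer RNA precursors, lay between 24.4 and 27.0 CPM in all CO2-treated queens. The other 8 queens ranged from 1.01 to 21.6 CPM, with mated queen 1 highest and mated queen 4 lowest. GB41078 (CG33977) and GB55541 (CG7326) showed the same 2 mated queens at or near the ends, at 0.360 and 8.32 CPM in the first gene and 0.216 and 3.05 CPM in the second. Their CO2 values of 8.56 to 12.2 and 3.18 to 3.94 CPM each exceeded the highest other queen by 1.03-fold only.

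**Figure D1:**
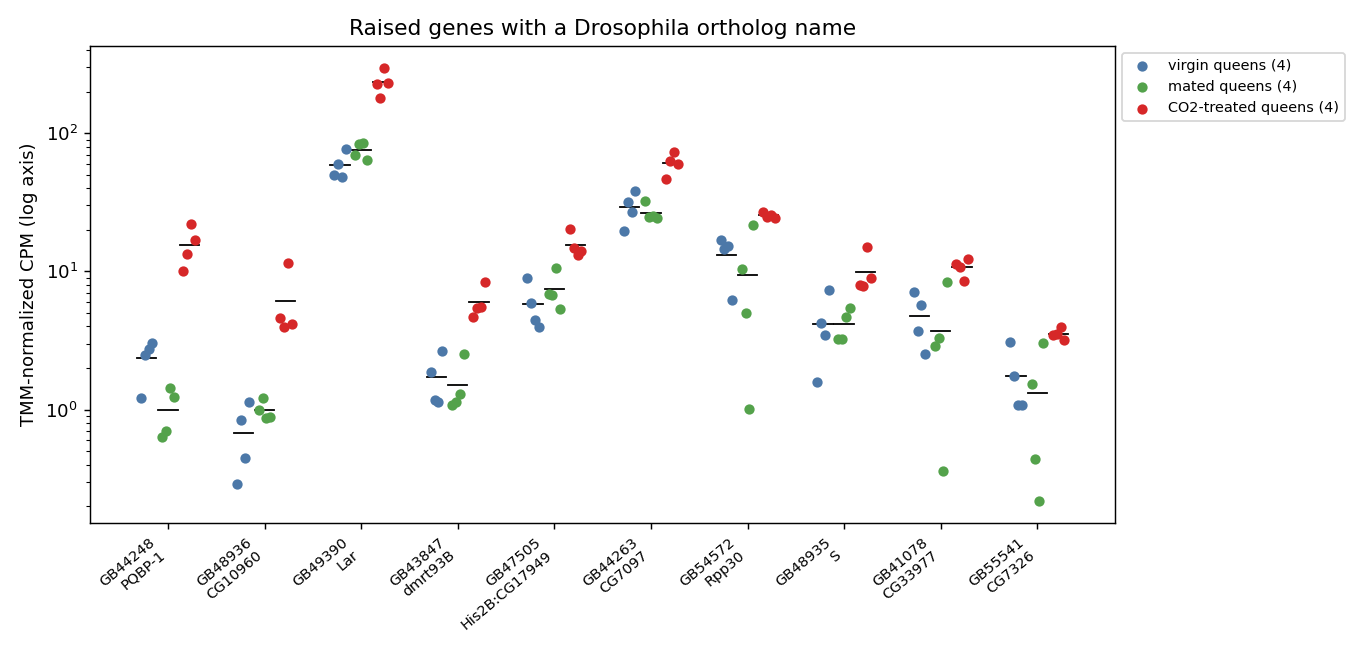
TMM-normalized CPM (log axis) of the 10 raised genes with a Drosophila ortholog name in each of the 12 queens; points are queens, coloured by group, and bars are group means (n = 4). PQBP-1, CG10960, Lar and dmrt93B leave a visible gap, whereas in Rpp30, CG33977 and CG7326 mated queen 4 is the lowest of the 12.

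Among raised genes without an ortholog name, 4 had gaps wide enough to rank within the first 8. GB40426 was at 92.9, 86.4, 132 and 101 CPM in CO2-treated queens 5, 2, 1 and 7 and from 30.5 to 63.0 CPM elsewhere. GB48848, on only 8 to 50 counts, had 2.66, 2.34, 2.69 and 2.24 CPM against a range from 0.696 to 1.54 CPM. The CO2 values of GB44657 were 24.9, 18.5, 16.6 and 18.7 CPM and those of the others from 5.52 to 12.9 CPM. For GB54936 they were 5.72, 8.21, 12.4 and 6.10 CPM and from 0.288 to 4.44 CPM, with the lowest value in mated queen 4. The 3 most abundant raised genes were GB51273, GB53644 and GB42875, with means over the 12 queens of 217, 193 and 158 CPM. In these the treated group was at 1.34, 1.85 and 1.35 times the mean of the others, with gaps of under 1.1-fold.

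Lowered genes differed less. The widest gap was that of GB49885 (ortholog Cyp6a17, a cytochrome P450 of the family that oxidises hormones, plant compounds and insecticides, and in Drosophila involved in temperature preference). Values were 50.9, 69.8, 54.9 and 67.9 CPM in CO2-treated queens 5, 2, 1 and 7, and 83.0, 109 and 251 CPM were the lowest, median and highest of the others. The gap was 1.19-fold, and mated queen 4 was far above the rest at 251 CPM. Means were 60.9 ± 9.36 CPM (SD, n = 4), 98.6 ± 19.4 CPM (SD, n = 4) and 147 ± 69.5 CPM (SD, n = 4) in CO2-treated, virgin and mated queens. Reads of related P450 genes may have been divided between copies. GB49327 (ortholog CG12268, of the fatty acyl-CoA reductase family, which makes fatty alcohols) was lower by the largest factor, 3.38 between the mean of the others and that of the treated queens. Its CO2 values were 2.42, 2.08, 1.56 and 2.11 CPM and the others ranged from 2.86 to 10.8 CPM, with 25 to 47 and 51 to 218 counts.

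Of the lowered genes with the widest gaps, 6 had no ortholog name. GB43302, the most abundant lowered gene, had 352, 327, 276 and 303 CPM in CO2-treated queens 5, 2, 1 and 7 and from 405 to 1271 CPM in the others. GB45884 was at 29.2, 33.3, 32.2 and 31.6 CPM in the treated group, close to the lowest virgin queen (36.7 CPM), while mated queens reached 227 CPM. Its fitted log2 difference between mated and virgin queens was 1.52, higher in mated queens. Virgin queen 1, at 79.8 CPM, was the only virgin queen above the lowest mated queen (65.5 CPM). The overlap that the choice required thus rested on that queen. GB48402 had 18.6 to 21.4 CPM in treated and from 24.9 to 38.1 CPM in other queens. In GB53757 the highest other value, 17.5 CPM in mated queen 6, was far from the next, and the CO2 values were at most 4.94 CPM. GB41910 was at 61.9 to 66.3 CPM against a range from 73.8 to 103 CPM, and GB53170, on 12 to 44 counts, at 0.750 to 1.12 CPM against a range from 1.28 to 3.17 CPM. The abundant genes GB46039 and GB43226 had treated means of 319 ± 24.2 CPM (SD, n = 4) and 261 ± 16.5 CPM (SD, n = 4), and other means of 522 ± 107 CPM (SD, n = 8) and 325 ± 47.9 CPM (SD, n = 8), with gaps of 1.01 and 1.01-fold.

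**Figure D2:**
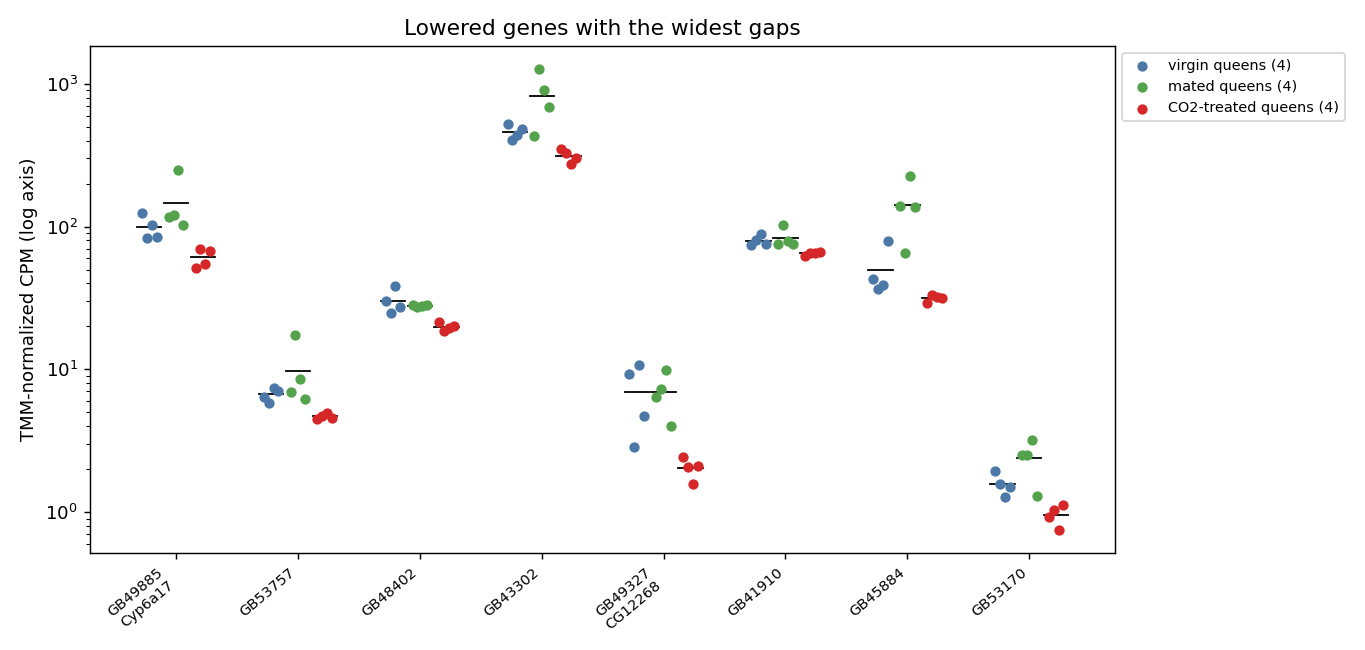
TMM-normalized CPM (log axis) of the 8 lowered genes with the widest gaps in each of the 12 queens; points are queens, coloured by group, and bars are group means (n = 4). In each gene the 4 CO2-treated queens lie just under the nearest virgin or mated queen, and 1 mated queen stands high in GB49885 and in GB53757.

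Raised and lowered genes differed in size and in abundance. Raised genes had treated means from 1.21 to 9.23 times the mean of the others (median 1.77), and 21 of 51 reached 2 times. In lowered genes the mean of the others was 1.15 to 3.38 times the treated mean (median 1.38), and 7 of 59 reached 2 times. The median gap was 1.06-fold in raised and 1.05-fold in lowered genes. A gap of at least 1.2-fold was found in 11 raised genes and in no lowered one. Raised genes had a median mean level of 13.2 CPM and lowered genes of 40.8 CPM, beside 29.8 CPM for all 10893 genes. Fewer than 10 counts in at least 1 queen occurred in 11 raised and 0 lowered genes.

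Near the threshold the choice was narrow. The raised genes just inside were GB43057, GB52755 and GB54603, whose lowest CO2 and highest other values were 14.5 and 14.5 CPM, 63.5 and 63.5 CPM and 37.6 and 37.6 CPM. Just outside stood GB47664 with 1.85 and 1.85 CPM, GB53066 with 51.4 and 51.6 CPM and GB44758 with 140.4 and 141 CPM. The lowered genes just inside were GB54797, GB40382 and GB43438, whose highest CO2 and lowest other values were 35.4 and 35.4 CPM, 7.13 and 7.14 CPM and 44.3 and 44.5 CPM. Just outside, the same values were 102 and 102 CPM in GB55625, 47.3 and 47.2 CPM in GB46915 and 896 and 895 CPM in GB44133. Without the condition that virgin and mated ranges overlap, 52 raised (0.477%) and 61 lowered genes (0.56%) would have been chosen. The 3 genes that this condition removed were GB49650 (CG30497), which was higher in treated queens, and GB49132 and GB50247 (CG2839), which were lower.

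**Figure D3:**
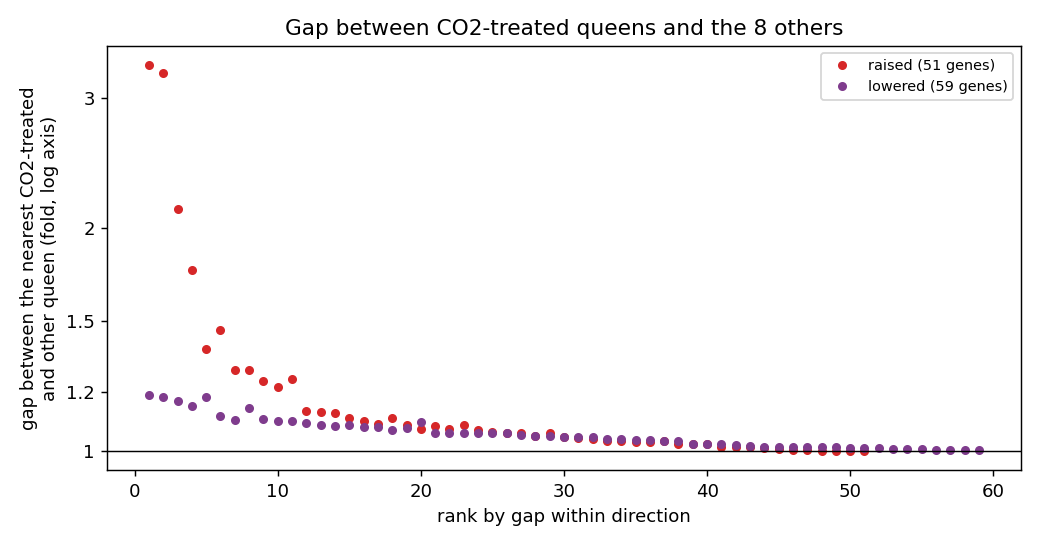
Gap between the nearest CO2-treated and the nearest other queen (fold, log axis) for each gene, ranked within its direction; the line at 1 is the threshold of the choice. The first 4 raised genes have gaps of 3.32, 3.24, 2.12 and 1.76-fold, and all lowered genes lie at or under 1.19-fold.

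The fit over 13038 genes repeats the contrasts by which the genes were chosen, so its counts are given without weight. In edgeR's quasi-likelihood test with Benjamini-Hochberg adjustment, the contrast with virgin queens called 2 of 51 raised (GB44248 and GB49390) and 0 of 59 lowered genes, where 0.0153% of all genes tested were called. In all, 28 raised and 32 lowered genes had an unadjusted p under 0.05, beside 2.62% and 3.2% of all genes tested, higher and lower. Against mated queens, 5 raised (GB43847, GB44248, GB44263, GB48936 and GB49390) and 2 lowered genes (GB45884 and GB54410) were called, beside 0.138% of all genes higher and 0.522% lower, or 0.66% together. GB54410, named here after its values were seen, had 28.9 to 45.0 CPM in CO2-treated and 47.6 to 97.0 CPM in the other queens. Against the mean of virgin and mated queens, 3 raised genes (GB44248, GB48936 and GB49390) and 0 lowered genes were called, beside 0.023% of all, and 44 raised and 52 lowered had an unadjusted p under 0.05, beside 3.49% and 4.4%. Median log2 fold changes of raised genes were 0.67 against virgin and 0.86 against mated queens, and those of lowered genes -0.44 and -0.49, where the medians of all genes were -0.02 and 0.03. These comparisons share the CO2-treated queens. Without any 1 queen the number called against virgin queens was 1 or 2, and GB49390 was called in each of those 12 fits, whereas GB44248 was called only without mated queen 4 or CO2 queen 5. Neither was called against virgin queens with total counts, in a fit to the 2 groups alone or with the queen number as a replicate block, where 0 genes of the whole table were called. GB48936 was not called against the mean of both groups without mated queen 4 or without mated queen 7.

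Which queens stood at the ends was uneven. In 31 of 51 raised genes the lowest of the 8 other queens was mated queen 4 (60.8%), which was lowest of the 8 in 23.3% of all genes. In 30 of 59 lowered genes the same queen was the highest of the 8 (50.9%, beside 14.1% of all genes). Its value was under 0.5 times the next lowest of the 8 in 12 raised genes (23.5%, beside 7.29% of all). Mated queen 4 thus lay farthest from the treated queens in most genes of both sets. The other queen nearest to the treated group in lowered genes was most often virgin queen 4 (21 of 59, or 35.6%, beside 8.28% of all genes). In raised genes mated queen 1 was nearest in 10 of 51 (19.6%, beside 4.52% of all genes) and virgin queens 6 and 1 in 9 each. Within the treated group, queen 1 was the most extreme in 25 raised and 27 lowered genes, and was so in 33.2% and 34.7% of all genes. Without mated queen 4 the choice gave 55 raised and 62 lowered genes, including 49 and 58 of the original ones.

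**Figure D4:**
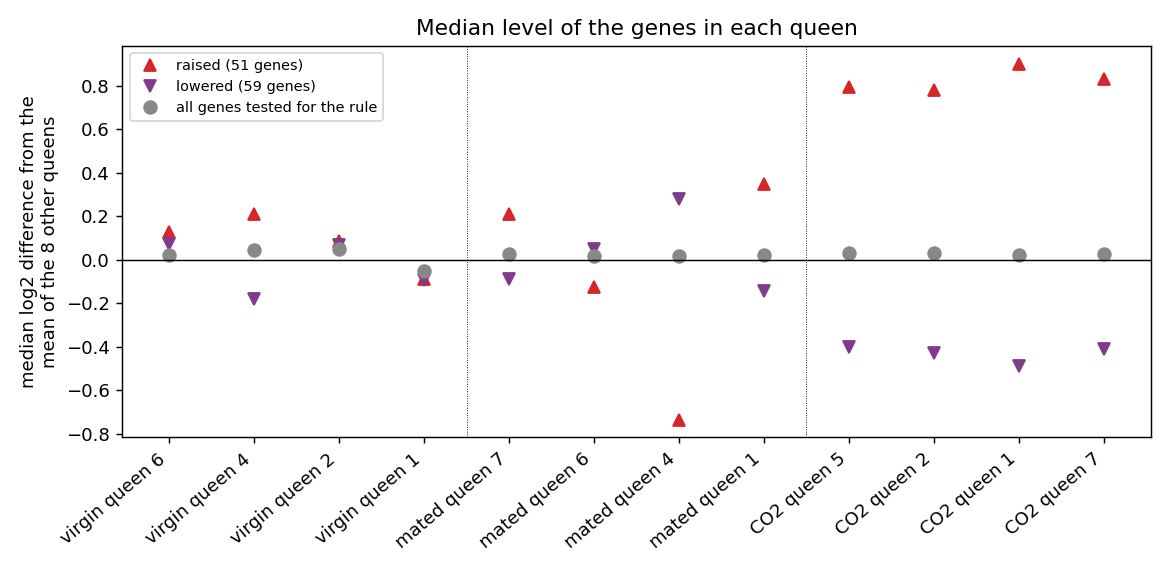
Median over the raised genes, the lowered genes and all genes of the log2 difference between each queen and the mean of the 8 virgin and mated queens. CO2-treated queens lie between 0.78 and 0.90 for raised and between -0.49 and -0.40 for lowered genes, mated queen 4 is at -0.74 and 0.28, and the medians of all genes stay between -0.05 and 0.05.

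The genes also varied together among queens of the same group. After each group mean was removed, the median correlation between pairs of raised genes over the 12 queens was 0.307, between pairs of lowered genes 0.395, and between a raised and a lowered gene -0.323, whereas the median over all pairs of genes was -0.03. Without mated queen 4, a setting chosen after seeing the data, the values were 0.177, 0.305, -0.17 and 0, in the same order. The points share libraries and their scaling, and the choice by ranges limited these deviations, so the correlations are descriptions.

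Several raised genes had neighbouring identifiers. Of 46 pairs of listed genes within 10 identifiers of each other that could be matched to RefSeq (Amel_HAv3.1), 45 shared a chromosome, and distances along it were not measured. Another raised gene lay within 10 identifiers for 15 of 51 raised genes (29.4%), whereas a raised gene lay that close to 6.1% of all 10893 genes. For lowered genes the shares were 4 of 59 (6.78%) and 7.64%. Besides GB48935 and GB48936, only GB53618 and GB53619 were consecutive. GB44248, GB44253 and GB44263 formed a run that includes the PQBP-1 and CG7097 orthologs, with 3 and 5 genes of the filtered table between them that were not raised. The other pairs were GB44305 with GB44308, GB48372 with GB48375, GB51638 with GB51648 and GB51957 with GB51965, and all had unselected genes between them.

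Gene groups linked to carbon dioxide, stress or the senses were searched among the 110 genes by name. Only names in the study's own lists could be searched, which the study had chosen on these same queens, so these counts are no independent evidence. With 1.01% of all genes chosen, lists of 1 to 15 genes would hold few or none in any case, and the 98 genes without a name could not be placed in a group. The carbonic anhydrase ortholog CAH2 (GB55070), of the enzymes that hydrate CO2, had 3.87 to 10.3 CPM in CO2-treated, 5.64 to 25.1 in virgin and 15.5 to 27.2 CPM in mated queens, and its treated and virgin ranges overlapped. None of 4 heat shock genes, 4 axonemal dynein heavy chains, 10 odorant receptors, 9 odorant-binding or chemosensory genes and 7 genes listed under cognition was set apart. Of 15 cytochrome P450 genes GB49885 was lowered, of 3 histone genes GB47505 was raised, and PQBP-1 was 1 of 2 splicing-related genes. Over these lists, edgeR's quasi-likelihood test called 5 genes outside the 110 in the contrast with mated queens and 0 in that with virgin queens, where 0.66% and 0.0153% of all genes tested were called. GB52375 and GB52376 (both matched to the odorant receptor Or43a) were higher in treated queens, with log2 fold changes of 3.21 and 3.48. GB45910 (l(2)efl, a small heat shock protein), GB43711 (Cyp9f2) and GB52324 (PebIII, a chemosensory protein) were lower, with -2.05, -2.10 and -2.31. No gene for hypoxia response, transferrin or ferritin, amine receptors, voltage-gated channels or the respiratory chain could be found by name, and these groups were not analysed here.

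Markers of other tissues that a dissected brain can carry overlapped in range between treated and other queens. Only markers named in the study's own lists could be searched, and the study had chosen those genes for differences between these same queens. Their ranges by group are therefore no independent measure of other tissue. The summed level of 4 retina genes (Rh2, Arr2, ninaC and norpA, of the photoreceptor) was 35.6 to 94.9 CPM in CO2-treated, 34.9 to 648 in virgin and 33.1 to 180.3 CPM in mated queens. For 4 fat body and haemolymph genes (Lsp2, RfaBp and Hml orthologs) the ranges were 6373 to 11927, 2515 to 7704 and 10554 to 27443 CPM, and for 2 muscle genes (Act88F and Tm2) 94.5 to 385, 69.9 to 851 and 92.9 to 1246 CPM. The median of CO2-treated queens for the fat body and haemolymph genes, 8241 CPM, lay above the highest virgin queen. The neuronal genes brp and syt summed to 55.1 to 229 CPM in CO2-treated, 35.4 to 138 in virgin and 172 to 374 CPM in mated queens. The median log2 fold change over these 2 genes was 0.08 against virgin and 0.06 against mated queens. The sums thus do not describe each neuronal gene. The part of these levels in the 110 genes was not tested. Of these markers none was set apart, where 1.01% of all filtered genes were.

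The lowered genes depended on how libraries were scaled. With each library scaled to its total counts instead of TMM, 75 genes were raised, 28 of them among the 51, and 2 were lowered, GB49327 and GB53170, both among the 59. Over all genes, that scaling moved the median contrast with mated queens from 0.03 to 0.67 (log2). Once GB49544 was left out of the totals, an alternative chosen after seeing the data, 52 were raised and 31 lowered, with 27 and 16 of the original genes. Under total counts GB49885 ranged from 55.6 to 76.8 CPM in CO2-treated and from 66.5 to 179.3 CPM in mated queens. Conversely, GB49390 stayed apart at 199 to 384 CPM against at most 99.5 CPM, and so did GB48936 and GB43847. GB44248 also remained above all other queens, but its virgin and mated ranges no longer overlapped. DESeq2's size factors gave 46 raised and 63 lowered genes, with 46 and 58 in common.

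Each queen was also left out in turn, genes were chosen on the other 11, and the queen left out was then placed. Of the raised genes chosen without a CO2-treated queen, she lay beyond the 8 others in 40.8% (queen 5), 58.6% (queen 2), 54.8% (queen 1) and 68.9% (queen 7). For lowered genes the shares were 42.1%, 63.4%, 70.2% and 72.0%. The genes kept were by construction the original 51 and 59 each time. Such a share thus only restates how many genes were chosen without that queen, here and for the groups below. The same choice applied to mated queens, for which it found 265 genes, kept 23.0% to 86.8% of raised and 26.0% to 77.1% of lowered genes, the lowest shares both for mated queen 1. Applied to virgin queens it found 74 genes and kept 24.7% to 85.5% and 20.5% to 75.0%. The 110 genes of the treated queens were thus fewer than those of mated queens (2.43% of the filtered genes, 1.57% raised and 0.863% lowered) and more than those of virgin queens (0.679%, 0.431% raised and 0.248% lowered), and these counts were not compared by a test.

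**Figure D5:**
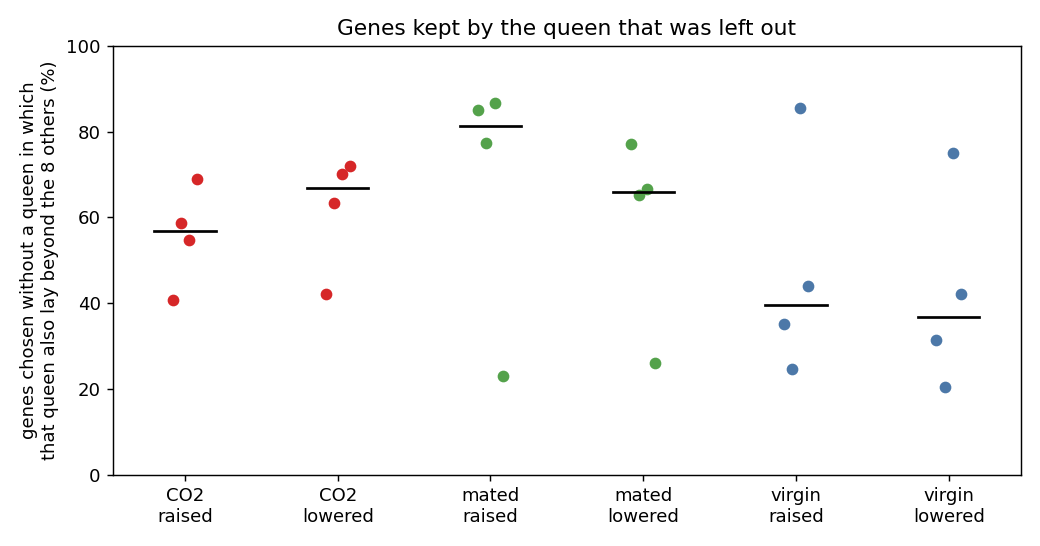
Percent of genes chosen without a queen in which that queen also lay beyond the 8 queens of the other groups, for CO2-treated, mated and virgin queens and both directions; each point is 1 queen left out and the bar is the median of 4. CO2-treated queens kept 40.8% to 72.0%, within the range of 20.5% to 86.8% of the other groups. Genes kept are by construction those of the full choice, so each percent reflects how many genes were chosen without that queen.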

How the data were processed

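The authors trimmed single-end reads with Trimmomatic, removed ribosomal reads with SortMeRna, aligned them with TopHat to Amel 4.5 and obtained raw counts of 15314 genes with SAMtools idxstats, and deposited these counts without normalization. A second table of standardized values made from the same counts was not used. Counts were normalized by TMM in edgeR 4.0.16 (R 4.3.3). The quasi-likelihood test was fitted to all 12 queens over 13038 genes, with 9 residual and 4.25 prior degrees of freedom, and adjusted by the Benjamini-Hochberg method. All queens came from the same colony, so p-values measure the spread among these sisters. Genes and lists were chosen with earlier results of these data known. Named genes were the 8 widest gaps and 3 highest means per direction, genes called against virgin queens or on a list, up to 12 per direction with an ortholog name, and those nearest the threshold. The gap was ranked on log2 of CPM plus 0.5. Orthologs come from the supplementary lists of 1088 genes, of which 220 were matched by accession to RefSeq, and 5 of the 110 genes were among these. Alternatives were other scalings, filters and tests, the exact test, DESeq2 1.42.0, the queen number as a block and each queen left out.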

Additional observations from a re-analysis of the deposited data

Results flagged for a closer look

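The 33 named genes in 3 groups of 4 queens gave 99 sets of values. In 10 of these sets, 1 queen lay far from the other 3 by Dixon's criterion. That criterion passes about 1 in 20 sets of unselected values. The named genes were chosen on these same values, so the shares are not compared. In the CO2-treated group the queens far from the rest were queen 1 in GB48936, at 11.6 CPM against 3.95 to 4.62 CPM, and in GB48935, at 15.0 against 7.85 to 8.92 CPM, and queen 2 in GB54797, at 35.4 against 32.9 to 33.2 CPM. In mated queens, queen 1 was high in GB43847 (2.52 against 1.08 to 1.30 CPM), queen 7 in GB44263 (32.1 against 24.3 to 25.2 CPM), queen 4 in GB49885 (251 against 102.7 to 119.8 CPM) and queen 6 in GB41910 (103 against 75.1 to 79.1 CPM). Mated queen 4 was low in GB54603 (21.1 against 34.9 to 37.6 CPM). In virgin queens, queen 1 was high in GB45884 (79.8 against 36.7 to 43.1 CPM) and queen 6 in GB43438 (72.1 against 44.5 to 49.0 CPM).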

How the results depend on the processing

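Raised genes numbered 51, 46 with DESeq2's size factors, 69 without a limit on mean CPM, 38 at 5 CPM or more, and 11 with a gap of at least 1.2-fold. Lowered genes numbered 59, 2 with total counts, 31 with total counts less GB49544, and 0 with a gap of at least 1.2-fold. Fewer queens make the choice easier by construction: leaving out 1 queen gave 55 to 125 raised genes (most without CO2 queen 5, and over 1.5 times as many also without CO2 queens 1 and 2, virgin queens 1 and 6 and mated queen 1) and 62 to 144 lowered genes (most without virgin queen 4, then CO2 queens 5 and 2). Genes called against virgin queens numbered 2, and 0 with total counts, 1 with total counts less GB49544, 9 by DESeq2's Wald test (of 20 genes called in the whole table, against 2 before), 8 and 9 by the exact test with tagwise and common dispersion (of 17 and 151), 0 in a fit to the 2 groups alone, and 1 to 2 without a queen (GB49390 in every case, and GB44248 only without mated queen 4 or CO2 queen 5). Against mated queens 7 of 86 were called, 27 of 421 by the Wald test, 17 of 289 and 21 of 636 by the exact tests, and 2 to 13 without a queen (13 of 179 without mated queen 1, 2 of 22 and 2 of 21 without CO2 queens 1 and 7, 3 without CO2 queen 2 or mated queens 4, 6 or 7). Against the mean of both, 3 of 3 were called, 5 of 9 with total counts, 22 of 83 by the Wald test, and 2 to 5 without a queen (5 without virgin queen 1 or mated queen 1). With the queen number as a replicate block, 0 of 0, 1 of 10 and 2 of 5 genes were called in these comparisons. The numbers name different animals, so the block pairs no animals. Of 7 pairs of same-numbered queens, 3 correlated above 0.1 (-0.28 to 0.51). The highest correlations of all pairs across groups were those of CO2 queen 1 with virgin queen 1 (0.51) and with mated queen 1 (0.40). Whether queens of the same number shared a step of handling was not tested. The cause of the changes in the number of genes called was not tested either. The 33 named genes were also compared with the mean of both other groups under 19 alternatives each. Of these results, 606 kept their side of the adjusted p threshold of 0.05, and 18 newly passed it. The 3 that no longer passed it were GB48936 with the block and without mated queens 7 and 4, at log2 fold changes of 2.99, 2.90 and 2.85. Only GB44248, GB48936 and GB49390 had passed it at first, so most of the 606 were uncalled in both fits. None of the log2 fold changes changed sign, although with total counts that of GB54797 shrank to 0.0718 of its value. The level of 0.135 to 0.271 CPM at 3 counts was a set floor for counting error, not a measured limit of detection. GB44308 lay under it in mated queen 4, at 0.072 CPM on 1 count.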
